A study of Mus musculus with 8 samples.

Results

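Axon guidance genes of the ephrin, semaphorin, Robo and Unc5 systems were followed in motor neuron cultures made from mouse embryonic stem cells. The set holds every gene whose symbol begins with Efna, Efnb, Epha, Ephb, Sema and a digit, Plxn, Nrp1, Nrp2, Robo or Unc5, with symbols assigned to probes through the RefSeq accession each probe carries. The array held 63 such genes. Of these, 59 had a probe flagged well above background on each array of 1 group or more, out of 24624 genes kept in all. The 59 were 8 ephrins, 14 Eph receptors, 19 semaphorins, 11 neuropilins and plexins, 3 Robo receptors, 3 Unc5 receptors and Unc50, which matches by prefix but belongs to another gene family. Robo4, Sema3g, Unc5d and Unc5cl, again a match by prefix only, did not pass. A total of 55 of the 59 were well above background on all 8 arrays, the exceptions being Epha6, Epha10, Plxnb3 and Sema3e.

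Growth cones read their path through pairs of cues and receptors. Ephrins, held at the cell surface, bind Eph receptor kinases, and the A class and B class steer motor axons into the dorsal or ventral part of the limb. Semaphorins, secreted or bound to the membrane, act through plexins, with neuropilins as co-receptors for the secreted class, and can repel, bundle or branch motor axons. Slit proteins repel through Robo receptors, which keep motor axons off the midline, and netrin repels through the Unc5 family.

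The cultures came from a male line whose titles name an Hb9-GFP reporter. All groups received retinoic acid and Shh from day 2 to day 5, were dissociated on day 5 and were then kept in GDNF. The 4 groups were Litchi knockout on day 9, control on day 9, Litchi knockout on day 7 and control on day 7, with 2 arrays each. The labels give neither the number of knockout clones nor the cultures behind the replicates. The p-values cover only the spread of the arrays at hand, part of which can be technical. Litchi matches no symbol of the gene table, and the labels of the knockout arrays were not checked by its level. All 8 motor neuron genes on a marker list, among them Isl1, Lhx3 and Chat, were kept. Cultures were profiled whole, so fewer cells of a type and less RNA per cell cannot be told apart.

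Values are log2 signals relative to the 75th percentile of the same array, so 0 is the brightness of that percentile, and each gene stands for 1 probe whose level is not comparable with that of another. The 75th percentile lay between 649 and 1691 intensity units. All 4 arrays of replicate 1 were brighter (at least 1088 units) than those of replicate 2 (at most 856). Over the guidance genes, arrays of 1 group correlated at a Pearson r of 0.981 to 0.994 and arrays of different groups at 0.933 to 0.986, as a description across genes. Differences between groups come from limma over all genes, with p-values adjusted over the 24624 genes and a call at an adjusted p under 0.05. Log2 changes are given with their standard error (SE). The effect of the knockout was taken on each day, with 2 arrays against 2, and as the mean of both days, with 4 against 4.

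In knockout cultures the guidance genes that changed were mostly lower, and semaphorins made up most of them. For the mean of both days, 14 of the 59 genes were called (23.7%), against 14.7% of all genes. Of the 14, 13 were lower (22.0% of the genes, against 9.23% of all genes and 8.54% of the 15031 that carry a symbol) and 1 was higher (1.69%, against 5.49%). The lower genes were the semaphorins Sema3c, Sema4a, Sema4f, Sema4g, Sema5a, Sema6b, Sema6d and Sema7a, the plexins Plxna3 and Plxna4, the Eph receptors Epha5 and Ephb1, and the netrin receptor Unc5c. The higher gene was the Eph receptor Epha7. In all 14, the arrays of the genotypes did not overlap on either day, as held over all genes for 16.8% lower and 13% higher. The calls used the same arrays, so this order is no separate support, here or for the single genes below. The median change of the 59 genes was -0.24, beside -0.04 for all genes.

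The count of 14 rested on all 8 arrays. It was 6 without knockout day 9 replicate 1, 3 without knockout day 9 replicate 2, 7 without control day 9 replicate 1 and 12 without control day 9 replicate 2. It was 6 without knockout day 7 replicate 1, 5 without knockout day 7 replicate 2, 6 without control day 7 replicate 1 and 7 without control day 7 replicate 2. Sema4f and Plxna4 were called under each of the 16 alternatives tried for the mean of both days, Sema6b under 15, and Sema7a and Unc5c under 14. The others held less often. Sema5a was called under 10, Sema3c and Sema4a under 8, and Epha7, Ephb1, Plxna3 and Sema4g under 6. Epha5 was called under 4 and Sema6d under 3. Scaling each array to its median in place of its 75th percentile moved the median change of all genes to 0.13. The guidance genes then gave 5 higher and 8 lower calls, and quantile normalization gave 3 higher and 11 lower.

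**Figure D1:**
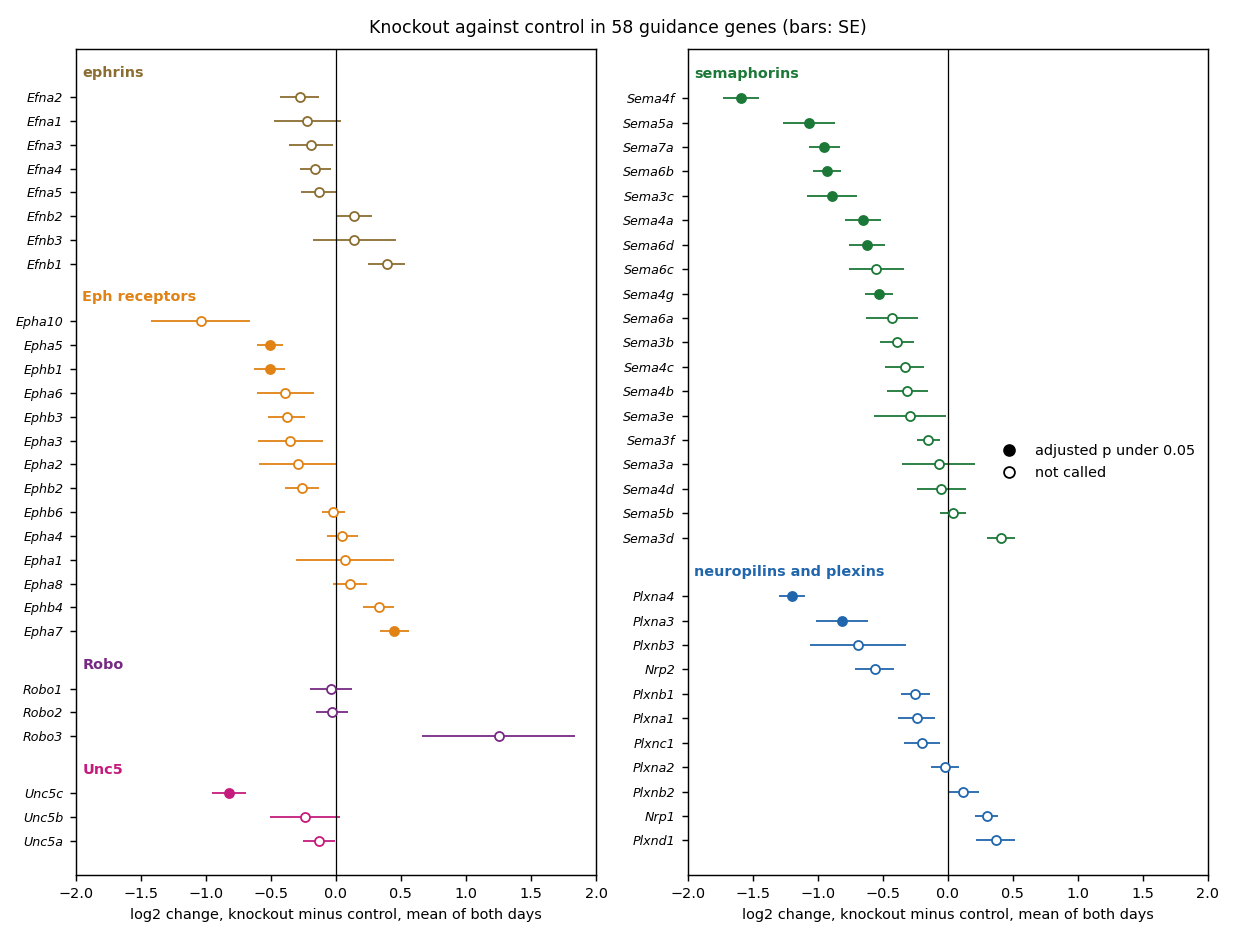
Log2 change of each kept guidance gene except Unc50, knockout minus control, for the mean of both days, grouped by role (points: limma estimate from 4 arrays against 4, bars: SE, filled: adjusted p under 0.05). In the semaphorin group 17 of 19 points lie left of 0 and 8 are filled, Sema4f farthest left at -1.59, while the ephrins hold no filled point.

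Ephrins, the ligands of the Eph receptors, showed no call. None of the 8 passed limma for the mean of both days, where 1 was higher at an unadjusted p under 0.05. On day 9 and on day 7 the counts were also 0, with 0 at an unadjusted p under 0.05. The median change was -0.15, which turned to 0.02 when arrays were scaled to their median, so the family has no fixed direction. All 5 members of the A class had negative changes and all 3 of the B class positive ones, each short of the threshold. With arrays scaled to their median the A class signs were not all kept, and Efna5, for instance, turned to 0.04. The signs are those of the chosen probes, and the second probe of Efnb2 had -0.10. Efnb3, at 0.14, lies on chromosome 11, whose 1250 genes had a median change of 0.34 for the mean of both days.

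The B class ligand Efnb1 read 4.61 and 4.74 in knockout cultures on day 9, against 4.30 and 4.23 in control cultures. Day 7 values were 4.29 and 3.86 in knockout cultures and 3.86 and 3.56 in control cultures. No knockout array lay below a control array of the same day, and the change of 0.39 ± 0.14 for the mean of both days had an adjusted p of 0.0992. Efna5, an A class ligand, differed by -0.13 ± 0.14 (adjusted p = 0.561) and Efnb2, a B class ligand, by 0.14 ± 0.14 (0.534). Efna3 had a second probe that differed from the chosen one, with -0.90 against -0.19 for the mean of both days.

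Of the 14 Eph receptors, 2 were lower (14.3%, against 9.23% of all genes) and 1 was higher (7.14%, against 5.49%) for the mean of both days, shares near those of all genes. Their median change was -0.28, or -0.11 with arrays scaled to their median. Epha5, an A class receptor, read 7.05 and 7.03 in knockout cultures on day 9, against 7.38 and 7.46 in control cultures. On day 7 Epha5 read 6.78 and 6.61 in knockout cultures, against 7.25 and 7.41 in control cultures. The groups did not overlap on either day, and Epha5 fell by 0.51 ± 0.10 (adjusted p = 0.0230), to 0.702 of the control level. Its other kept probe also had a negative change (-0.43), and the mean of both probes did not pass (-0.47 ± 0.13, 0.0523).

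Ephb1, the B class receptor that guides ventrally projecting limb motor axons, read 1.34 and 1.37 in knockout cultures on day 9, against 1.96 and 1.66 in control cultures. Day 7 values were 1.45 and 1.33 in knockout cultures and 2.13 and 1.79 in control cultures. Every knockout array lay below every control array, and Ephb1 fell by 0.51 ± 0.12 (adjusted p = 0.0411). Epha7 went the other way. It read 1.24 and 1.14 in knockout cultures, against 0.53 and 0.91 in control cultures, on day 9, and 1.23 and 1.34, against 0.84 and 0.87, on day 7. Its rise of 0.45 ± 0.11 (adjusted p = 0.0473) was not shared by all of its 3 kept probes, which ran from -0.19 to 0.45, and with the probes averaged it was 0.07 ± 0.11 (0.709).

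Epha4, the receptor that directs lateral motor axons into the dorsal limb, differed little by genotype. It read 0.77 and 1.02 in knockout cultures on day 9, against 0.87 and 0.60 in control cultures, and 1.51 and 1.39, against 1.58 and 1.45, on day 7. The arrays of the genotypes overlapped on both days, and the change was 0.05 ± 0.12 (adjusted p = 0.795). Epha3, found on axial motor axons, stood at -0.35 ± 0.25 (0.368) and the B class receptor Ephb2 at -0.26 ± 0.13 (0.222). The remaining receptors ran from Epha10 at -1.04 ± 0.38 (0.109), which was below background on 1 knockout array of day 7, to Ephb4 at 0.33 ± 0.12, neither past the threshold.

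Semaphorins held most of the calls and, with Sema4f, the largest single fall. For the mean of both days 8 of 19 fell (42.1%, against 9.23% of all genes) and 0 rose by limma (1 higher and 10 lower at an unadjusted p under 0.05). Their median change was -0.43, and it was negative under each scaling tried, at -0.27 with arrays scaled to their median and -0.46 after quantile normalization. Averaged over the 19 genes, each centred on its own mean, the level was -0.16 and -0.17 on the knockout arrays of day 9, against 0.40 and 0.21 on the control arrays. On day 7 it was -0.25 and -0.40 on the knockout arrays and 0.29 and 0.09 on the control arrays. The calls came from the membrane-bound classes 4 to 7 except for Sema3c, which is secreted.

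Sema4f, a membrane-bound class 4 semaphorin, changed most. It read -2.54 and -2.34 in knockout cultures on day 9, against -0.28 and -0.51 in control cultures. On day 7 it read -1.67 and -2.01 in knockout cultures, against -0.54 and -0.89 in control cultures. The arrays of the genotypes did not overlap on either day. Sema4f fell by 1.59 ± 0.14 for the mean of both days (adjusted p = 0.00518), to 0.333 of the control level, and on day 9 alone by 2.04 ± 0.20 (0.0137).

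Sema6b, a transmembrane ligand of class A plexins, read -0.79 and -0.99 in knockout cultures on day 9, against 0.16 and 0.15 in control cultures. On day 7 Sema6b read -1.35 and -1.13 in knockout cultures, against -0.53 and -0.32 in control cultures. It fell by 0.93 ± 0.11 (adjusted p = 0.00938), to 0.524 of the control level, with no overlap on either day. Sema7a, the membrane-anchored semaphorin that promotes axon growth through integrins, read -0.17 and -0.12 in knockout cultures on day 9, against 1.19 and 0.93 in control cultures. On day 7 Sema7a read 0.15 and 0.39 in knockout cultures, against 1.10 and 0.81 in control cultures. It fell by 0.95 ± 0.12 (0.0118) and the groups stayed apart on both days.

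Sema5a, a transmembrane semaphorin with thrombospondin repeats, read 0.46 and 0.44 in knockout cultures on day 9, against 1.74 and 0.97 in control cultures. Day 7 values were 1.01 and 0.65 in knockout cultures and 2.27 and 1.83 in control cultures, and the fall was 1.07 ± 0.20 (adjusted p = 0.0240). Sema3c, a secreted ligand of neuropilin and plexin complexes, read 1.70 and 1.62 in knockout cultures on day 9, against 2.70 and 2.10 in control cultures. On day 7 Sema3c read 0.84 and 0.44, against 1.91 and 1.44. It fell by 0.89 ± 0.19 (0.0308), and its second probe had -0.62. The mean of both Sema3c probes did not pass (-0.76 ± 0.21, 0.0558). Sema4a, Sema4g and Sema6d fell by 0.65, 0.53 and 0.62 (adjusted p between 0.0276 and 0.0364), while the second probe of Sema6d had -0.15 and the mean of its probes did not pass (-0.39 ± 0.12, 0.0741).

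The other secreted class 3 semaphorins had no call for genotype in this fit. Sema3a, a repellent of motor axons that signals through Nrp1, differed by -0.07 ± 0.28 (adjusted p = 0.887) and Sema3f, which signals through Nrp2, by -0.15 ± 0.09 (0.308). Sema3d was the 1 class 3 gene that lay higher on the knockout arrays of both days, at 0.41 ± 0.11 (0.0555), and it was called higher with the replicate block, median or quantile scaling, the authors' table and the filter on all 8 arrays. Sema3b, called lower with the replicate block, stood at -0.39 ± 0.13 (0.0906) and Sema3e at -0.29 ± 0.28 (0.509), with Sema3e below background on 1 array of each day 7 group. The uncalled semaphorins of classes 4 to 6 ran from Sema6c at -0.55 ± 0.21 (0.130) to Sema5b at 0.04 ± 0.10 (0.795).

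**Figure D2:**
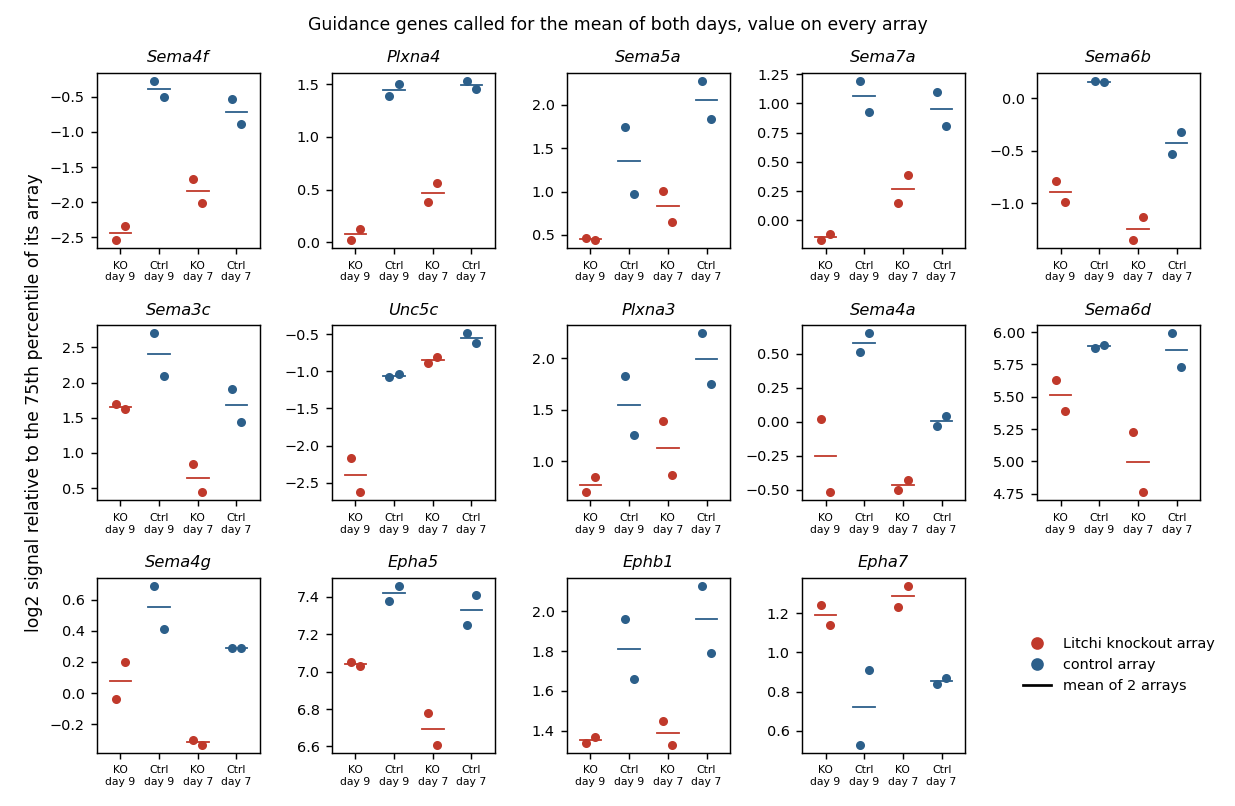
Log2 signal relative to the 75th percentile of the array on each of the 8 arrays, for the 14 guidance genes called for the mean of both days (points: arrays, lines: mean of 2 arrays, red: Litchi knockout, blue: control, each panel with its own axis). Knockout points lie below the control points of the same day in 13 panels and above them for Epha7.

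Among the neuropilins and plexins, the receptors of the semaphorins, Plxna4 and Plxna3 fell (18.2%, against 9.23% of all genes) and no gene rose. The median change of the 11 genes was -0.24, and -0.07 with arrays scaled to their median. Plxna4, the plexin that carries the signals of Sema3a and class 6 semaphorins, read 0.02 and 0.13 in knockout cultures on day 9, against 1.39 and 1.50 in control cultures. On day 7 it read 0.38 and 0.56 in knockout cultures, against 1.53 and 1.46 in control cultures. The gap between the genotypes was far wider than that between the arrays of a group. Plxna4 fell by 1.20 ± 0.10 (adjusted p = 0.00468), to 0.436 of the control level, and on day 9 alone by 1.37 ± 0.14 (0.0138).

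Plxna3, a class A plexin linked to Sema3f, read 0.70 and 0.85 in knockout cultures on day 9, against 1.83 and 1.26 in control cultures. On day 7 Plxna3 read 1.39 and 0.87, against 2.24 and 1.75. The groups did not overlap, and Plxna3 fell by 0.81 ± 0.20 (adjusted p = 0.0426). The other class A plexins stood at -0.24 ± 0.14 (Plxna1, 0.296) and -0.02 ± 0.11 (Plxna2, 0.909). The co-receptors parted in sign, and neither was called for the probe chosen. Nrp2, the co-receptor for Sema3f, stood at -0.56 ± 0.15 (0.0542) and Nrp1, the co-receptor for Sema3a, at 0.30 ± 0.09 (0.0680), each with no overlap of genotypes on either day. The second Nrp2 probe had -0.72, and the mean of both probes passed (-0.64 ± 0.16, 0.0413). Nrp2 was also called with the filter on all 8 arrays and without control day 9 replicate 1, and Nrp1 with median or quantile scaling and in the authors' table.

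Plxnb3 was not well above background on either knockout array of day 7. It passed the filter through the control arrays of day 7 alone. A lower day 7 level in knockout cultures is thus favoured by the filter and is no separate result. Its day 7 change was therefore a bound, at least 1.68-fold lower in knockout cultures (adjusted p = 0.132, group means -7.09 in knockout and -5.07 in control cultures). Plxnd1, the receptor of Sema3e, stood at 0.37 ± 0.15 (0.150).

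None of the 3 kept Robo receptors was called for the mean of both days by limma with all arrays (0 at an unadjusted p under 0.05). Robo1 and Robo2, the receptors that carry Slit repulsion, stood at -0.04 ± 0.16 (adjusted p = 0.878) and -0.03 ± 0.12 (0.888). Robo3, which lowers sensitivity to Slit in commissural axons, read -0.47 and -1.11 in knockout cultures on day 9, against -3.78 and -0.97 in control cultures. The 2 control arrays of day 9 lay farther apart than the genotypes did. For the mean of both days its change was 1.25 ± 0.59 (0.190), which was 0.54 ± 0.24 (0.222) without control day 9 replicate 1 and 1.95 ± 0.24 (0.0142) without control day 9 replicate 2. Its day 9 change of 1.59 ± 0.83 (0.282) was 0.18 ± 0.38 (0.833) without control replicate 1 and 2.99 ± 0.38 (0.0368) without control replicate 2.

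Of the 3 kept Unc5 receptors, which turn the response to netrin into repulsion, Unc5c fell. It read -2.17 and -2.63 in knockout cultures on day 9, against -1.08 and -1.04 in control cultures. On day 7 Unc5c read -0.89 and -0.81 in knockout cultures, against -0.49 and -0.62 in control cultures. The groups did not overlap on either day, though the gap was wider on day 9. Unc5c fell by 0.82 ± 0.13 for the mean of both days (adjusted p = 0.0160) and by 1.34 ± 0.18 on day 9 (0.0203). Its other kept probe had -0.13 and -0.33, and the mean of both probes passed (-0.48 ± 0.11, 0.0350, and -0.84 ± 0.15, 0.0357). Unc5a and Unc5b stood at -0.13 ± 0.12 (0.457) and -0.24 ± 0.27 (0.569), and Unc50 at 0.11 ± 0.09 (0.421).

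On day 9 alone, 5 of the 59 genes were called and all 5 were lower: Sema4f, Sema6b, Sema7a, Plxna4 and Unc5c. That is 8.47% of the genes, against 3.94% of all genes called lower and 5.45% called in either direction on that day, and 1.52% of all genes were called higher. In folds the knockout level was 0.242 of control for Sema4f, 0.387 for Plxna4, 0.394 for Unc5c, 0.434 for Sema7a and 0.484 for Sema6b. The count of lower genes was 1 without knockout day 9 replicate 1, 0 without knockout day 9 replicate 2, 0 without control day 9 replicate 1 and 3 without control day 9 replicate 2, where Robo3 was called higher. On day 7 none of the 59 genes passed limma (3 higher and 17 lower at an unadjusted p under 0.05), where 0.203% of all genes were called, 0.0934% higher and 0.110% lower. Plxna4 was nearest, at -1.02 ± 0.14 (0.0590).

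The 2 days were also compared by the order of the arrays alone. On day 9, 27 of the 59 genes had both knockout arrays below both control arrays (45.8%, against 32.5% of all genes), and 11 had them above (18.6%, against 27.2%). On day 7 the numbers were 28 below (47.5%, against 27.8%) and 7 above (11.9%, against 20.6%). On both days, 18 genes were lower (30.5%, against 16.8%) and 5 were higher (8.47%, against 13.0%). The 5 were Efnb1, Epha7, Ephb4, Nrp1 and Sema3d, though the second Ephb4 probe had -0.09 on day 9 and -0.22 on day 7.

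No difference of the knockout effect between the days was called for a guidance gene by limma's interaction term (0 of 59, with 3 higher and 2 lower at an unadjusted p under 0.05, where 0.00406% of all genes were called). Unc5c, whose day 9 effect was the larger, had an interaction of -1.05 ± 0.25 (adjusted p = 0.718), or -0.72 ± 0.21 (0.818) with its probes averaged, and its second probe stood at -0.33 on day 9 and 0.06 on day 7. Sema4f had an interaction of -0.92 ± 0.28 (0.799). Unc5a had one of 0.75 ± 0.23 (0.799), with a change of 0.24 on day 9 and of -0.51 on day 7. Sema5b had one of 0.93 ± 0.20 (0.718). Plxnb3, below background on both knockout arrays of day 7, had one of 2.67 ± 0.74 (0.762).

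**Figure D3:**
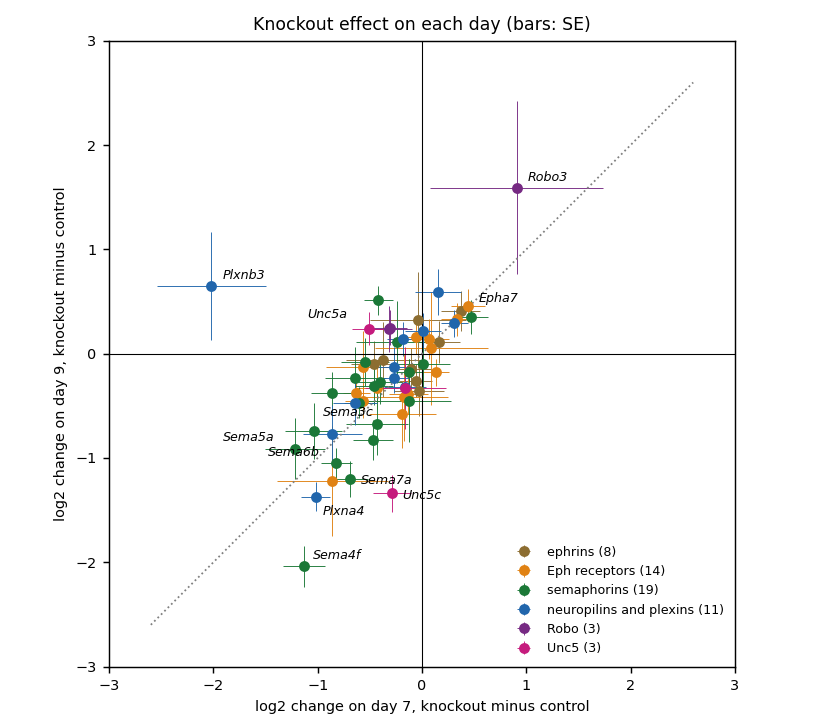
Knockout minus control change on day 9 (vertical) against that on day 7 (horizontal), in log2 units, for the 58 guidance genes coloured by role (bars: SE, dotted line: equal changes, 2 arrays per group). Sema4f, Plxna4, Sema6b and Sema7a lie low on both axes, Unc5c lies at -1.34 on day 9 and -0.29 on day 7, Robo3 carries the widest bars, and the day 7 value of Plxnb3 rests on knockout arrays below background.

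The 250 bases upstream of the annotated starts are shown for genes called lower on day 9. Whether these genes share regulation was not tested. Sequences are from RefSeq on GRCm38.p6, 5′ to 3′ on the gene's strand. The windows are chr6:82939770-82940019 on the minus strand for Sema4f, chr17:56140344-56140593 on the minus strand for the first of 2 listed starts of Sema6b, chr9:57939862-57940111 on the plus strand for Sema7a and chr3:141465314-141465563 on the plus strand for Unc5c. Plxna4 is not shown. Capitals mark GC boxes, GGGCGG on either strand, the motif bound by Sp-family factors.
Sema4f: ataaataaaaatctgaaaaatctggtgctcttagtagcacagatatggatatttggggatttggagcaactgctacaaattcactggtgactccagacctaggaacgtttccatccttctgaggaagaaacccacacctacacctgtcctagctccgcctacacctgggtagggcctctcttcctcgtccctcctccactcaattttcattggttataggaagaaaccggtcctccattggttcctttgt
Sema6b: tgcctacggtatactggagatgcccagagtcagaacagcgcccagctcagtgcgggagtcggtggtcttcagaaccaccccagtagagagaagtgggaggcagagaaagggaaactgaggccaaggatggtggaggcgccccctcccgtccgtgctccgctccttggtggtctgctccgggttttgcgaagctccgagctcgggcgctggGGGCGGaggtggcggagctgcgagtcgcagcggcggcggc
Sema7a: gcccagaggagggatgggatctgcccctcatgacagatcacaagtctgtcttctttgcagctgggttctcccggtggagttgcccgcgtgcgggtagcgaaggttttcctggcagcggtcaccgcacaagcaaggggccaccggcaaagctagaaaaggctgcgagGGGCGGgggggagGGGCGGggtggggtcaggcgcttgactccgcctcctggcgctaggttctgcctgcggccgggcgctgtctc
Unc5c: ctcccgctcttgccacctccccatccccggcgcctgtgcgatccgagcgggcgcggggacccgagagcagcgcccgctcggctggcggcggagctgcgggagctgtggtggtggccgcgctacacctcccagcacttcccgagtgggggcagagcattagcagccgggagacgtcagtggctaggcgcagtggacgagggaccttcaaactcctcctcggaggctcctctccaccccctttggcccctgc

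The Sema6b window held 1 GC box and the Sema7a window 2, and this motif was not found in the windows of Sema4f and Unc5c. Their GC content was 46.0% for Sema4f, 66.0% for Sema6b, 66.4% for Sema7a and 71.2% for Unc5c, beside a median of 52.4% over 32851 windows of all genes. Windows matched 53 of the 59 genes, and 49 of their 69 windows held a GC box (71.0%), against 32.7% of all windows. Among the 12 of 13 lower genes with a window the share was 70.6%. The CCAAT box (CCAAT on either strand) was in 27.5% of the guidance gene windows and 33.8% of all, and the E-box CAGCTG in 13.0% of both. The homeodomain core TAATTA was in 4.35%, against 4.84%. The median GC content of the guidance gene windows was 64.4%.

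Between the days, 7 guidance genes changed in knockout cultures (11.9%), a share near the 8.34% of all genes and 9.19% of those with a symbol. In control cultures 9 changed (15.3%, against 7.37% and 8.85%). In knockout cultures 5 were higher on day 9 (4.15% of all genes were) and 2 lower (4.19%), and in control cultures 5 were higher (4.10%) and 4 lower (3.27%). Nrp1, Nrp2, Plxnb2, Sema3b and Sema3d were called in the same direction in both genotypes. Plxnc1 and Unc5c were called in knockout cultures alone (Unc5c in both genotypes with its probes averaged), and Sema3e, Epha4, Robo2 and Unc5a in control cultures alone, with no interaction call for any of them. Each day comparison uses the same arrays as the genotype comparisons.

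Sema3b, a secreted semaphorin, rose. It read 1.00 and 0.93 on day 9, against -0.54 and -0.85 on day 7, in knockout cultures. In control cultures it read 1.33 and 1.21 on day 9, against -0.05 and -0.42 on day 7. All day 9 arrays lay above all day 7 arrays, and the rise was 1.66 ± 0.18 in knockout (adjusted p = 0.00704) and 1.50 ± 0.18 in control cultures (0.0113). Sema3d fell. It read -3.67 and -3.60 on day 9, against -2.02 and -1.66 on day 7, in knockout cultures, and -3.97 and -3.99, against -2.37 and -2.24, in control cultures. The fall was 1.79 ± 0.16 in knockout (0.00522) and 1.67 ± 0.16 in control cultures (0.00738).

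The semaphorin co-receptors rose between the days in both genotypes. Nrp2 read 5.77 and 5.51 on day 9, against 4.36 and 4.55 on day 7, in knockout cultures, a rise of 1.18 ± 0.21 (adjusted p = 0.0243). In control cultures Nrp2 read 5.83 and 6.39, against 5.11 and 5.10, a rise of 1.01 ± 0.21 (0.0428). Nrp1 rose by 0.65 ± 0.13 in knockout (0.0308) and 0.67 ± 0.13 in control cultures (0.0328). Plxnb2, the receptor of class 4 semaphorins, rose by 1.11 ± 0.17 (0.0146) and 0.91 ± 0.17 (0.0317), and the Sema7a receptor Plxnc1 by 0.98 ± 0.19 in knockout cultures (0.0325), beside 0.84 ± 0.19 in control cultures (0.0524). The second Plxnc1 probe had 0.83 in knockout and 0.36 in control cultures.

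Several receptors were lower on day 9. Unc5a, a netrin receptor, read 3.27 and 2.92 on day 9, against 4.25 and 4.20 on day 7, in control cultures, a fall of 1.13 ± 0.16 (adjusted p = 0.0186). In knockout cultures it read 3.24 and 3.44, against 3.67 and 3.75, a difference of -0.37 ± 0.16 (0.211). Robo2 fell by 0.93 ± 0.17 in control cultures (0.0325), beside -0.37 ± 0.17 in knockout cultures (0.234), and Epha4 by 0.78 ± 0.16 (0.0422), beside -0.55 ± 0.16 (0.0922). Unc5c fell by 1.56 ± 0.18 in knockout cultures (0.00741), beside -0.50 ± 0.18 in control cultures (0.138). Its other kept probe had -1.38 in knockout and -0.99 in control cultures, and the mean of both probes passed in both, at -1.47 ± 0.15 (0.00713) in knockout and -0.75 ± 0.15 (0.0393) in control cultures. Sema3e rose by 1.94 ± 0.40 in control cultures (0.0405), beside 1.62 ± 0.40 in knockout cultures (0.0589). It was below background on 1 array of each day 7 group and passed the filter through its day 9 arrays alone. A rise of Sema3e is thus favoured by the filter and is no separate result.

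These day counts moved with single arrays. The 7 calls in knockout cultures became 3 without either knockout day 9 replicate, and 4 and 3 without knockout day 7 replicate 1 and 2. Sema3b, Sema3d and Unc5c were called in knockout cultures in all 17 alternatives. The 9 calls in control cultures became 7 and 1 without control day 9 replicate 1 and 2, 3 and 0 without control day 7 replicate 1 and 2, and 3 without any 1 of the 4 knockout arrays, which enter only through the pooled spread. In control cultures, scaling to the array median gave 6 higher and 3 lower calls.

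**Figure D4:**
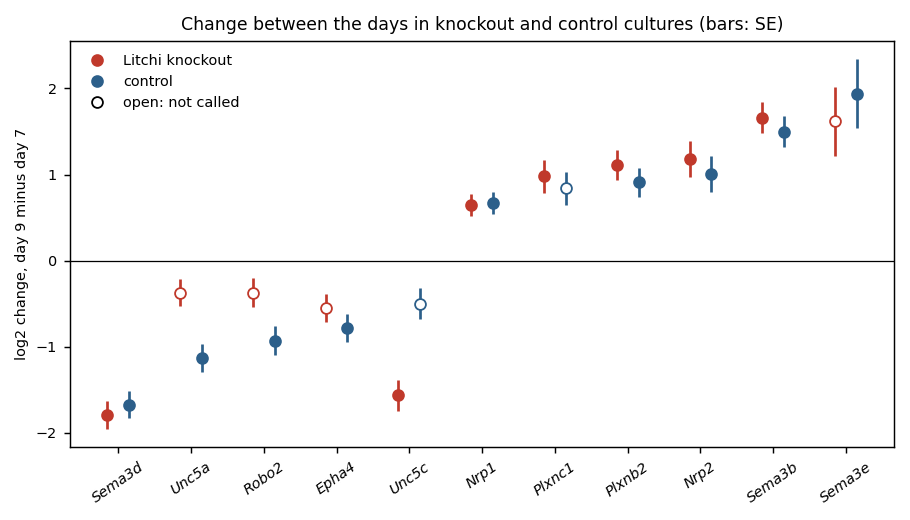
Change between the days, day 9 minus day 7 in log2 units, in knockout (red) and control (blue) cultures for the 11 guidance genes called in either (points: limma estimate from 2 arrays against 2, bars: SE, open points: not called). Every gene moves in 1 direction in both genotypes, and the widest gaps between red and blue are those of Unc5c and Unc5a, where the second Unc5c probe, not drawn, has -1.38 in knockout and -0.99 in control cultures. Sema3e was below background on 1 array of each day 7 group and passed the filter through its day 9 arrays alone.

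Other genes of these pathways were read beside them. Of 14 kept slit, netrin and related ligands and receptors, 4 fell and 0 rose for the mean of both days (28.6% lower, against 9.23% of all genes), with a median of -0.20. Slit1, a Robo ligand, fell by 0.58 ± 0.10 (adjusted p = 0.0185), Ntng1, a membrane-anchored netrin relative, by 1.13 ± 0.17 (0.0161), Dscam, a netrin receptor and adhesion molecule, by 1.00 ± 0.19 (0.0226) and Flrt1, of a family that binds Unc5 receptors, by 0.94 ± 0.14 (0.0148). Ntn1, the netrin of the floor plate, stood at 0.08 ± 0.10 (0.612) and its receptor Dcc at -0.66 ± 0.20 (0.0743).

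Of 41 growth cone effectors, 8 fell (19.5%, against 9.23% of all genes) and 2 rose (4.88%, against 5.49%), with a median of -0.22. Not all 8 are named here. Chn1, the Rac regulator downstream of EphA4, fell by 0.71 ± 0.12 (adjusted p = 0.0196). Dpysl2, Dpysl3 and Dpysl5, of the family of collapsin response mediators, fell by 0.44, 0.57 and 0.55 (0.0187 to 0.0317). Pak1, a Rac-activated kinase, fell by 0.59 ± 0.10 (0.0174), and L1cam and Nrcam, adhesion partners of neuropilins, by 0.77 ± 0.20 (0.0492) and 0.43 ± 0.11 (0.0490). Mical1, an actin oxidase that binds plexins, rose by 0.62 ± 0.10 (0.0182) and the axonal adhesion molecule Cntn2 by 1.14 ± 0.29 (0.0455). Of 9 other motor axon receptors and their regulators, the HGF receptor Met fell by 0.58 ± 0.10 (0.0185) and 0 rose, a share of 11.1% lower that is near the 9.23% of all genes.

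Markers of cell types moved with genotype in the same arrays. Genotype calls of the markers are for the mean of both days, where 9.23% of all genes were lower and 5.49% higher. Of 10 pan-neuronal markers, 9 fell for the mean of both days, with a median of -0.67. Their mean level, each gene centred, was -0.59 and -0.61 on the knockout arrays of day 9, against 0.36 and 0.12 on the control arrays, and -0.14 and -0.05, against 0.38 and 0.52, on day 7. Of 8 motor neuron genes, 4 fell and 1 rose, and of 10 neural progenitor genes 4 rose. Of 13 mesenchymal and endothelial genes, 7 rose and 1 fell.

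For the mean of both days, 7 of 8 kept trophoblast markers and 5 of 7 pluripotency genes were called lower, against 9.23% of all genes. The mean level of the trophoblast markers was -1.62 and -1.59 on the knockout arrays of day 9, against 1.17 and 2.14 on the control arrays. On day 7 the trophoblast level was -1.46 and -0.88, against 1.05 and 1.18. Interferon response genes were called higher in 8 of 10 for the mean of both days, against 5.49% of all genes. By limma 0 were called on either day alone, with 10 higher at an unadjusted p under 0.05 on day 7 and 0 on day 9. Their mean level was 1.78 and 1.44 on the knockout arrays of day 9, against 0.11 and 1.77 on the control arrays. On day 7 it was 0.22 and -0.01 on the knockout arrays, against -2.39 and -2.92 on the control arrays. Gfap, S100b, Tpbpa, Elf5 and Aurkb of the marker lists were not kept. Marker genes were also called between the days. Of 8 motor neuron genes, 5 were lower on day 9 in knockout and 4 in control cultures, against 4.19% and 3.27% of all genes. Of 5 floor plate genes, 5 were higher in knockout and 4 in control cultures, against 4.15% and 4.10%. Of 10 interferon response genes, 1 was higher in knockout and 10 in control cultures. Other lists are not described by day. The part of these cell type and interferon differences in the guidance gene changes, by genotype or by day, was not tested.

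**Figure D5:**
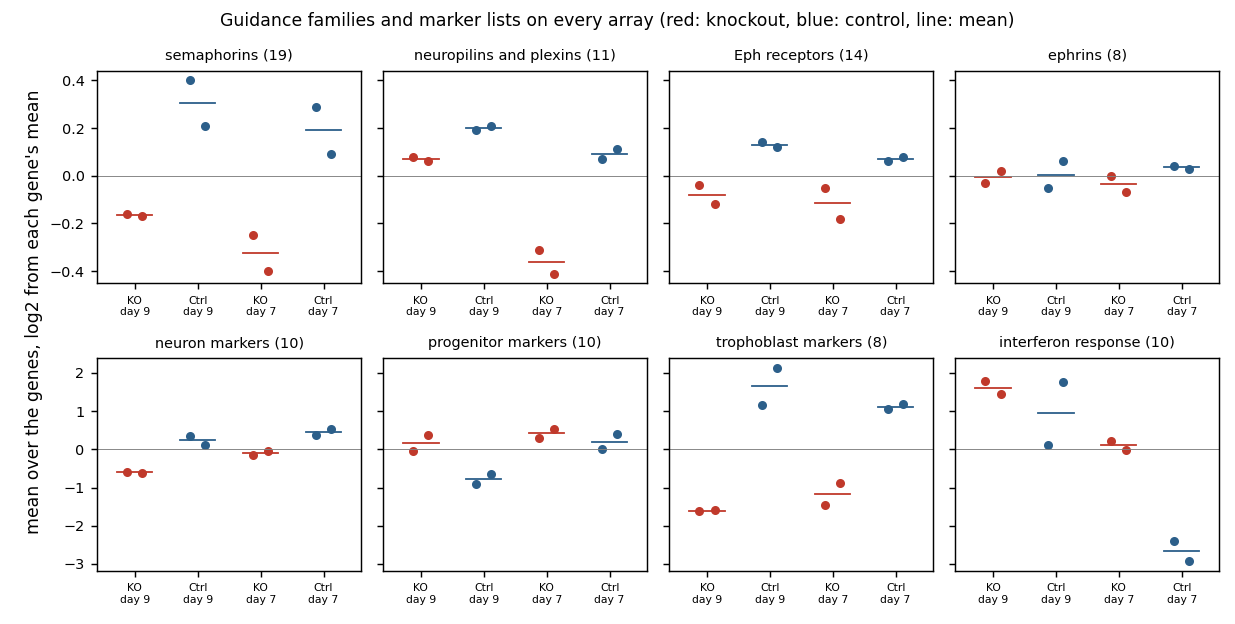
Mean level on each array of 4 guidance families (top row, 1 shared axis) and 4 marker lists (bottom row, 1 shared axis), each gene centred on its mean over the 8 arrays, in log2 units (points: arrays, lines: mean of 2 arrays, red: Litchi knockout, blue: control, gene numbers in brackets). Semaphorins, Eph receptors and neuron markers lie lower on knockout than on control arrays of each day, ephrins overlap on day 9, and the 2 control day 9 arrays of the interferon list lie at 0.11 and 1.77.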

How the data were processed

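RNA was labelled with Cy3 and hybridised to 1-colour Agilent mouse arrays, per the labels' protocols. Per the submitters' processing notes, the authors used Agilent Feature Extraction 10.5.1 on the images. The deposited processed signal is a spot intensity, background-subtracted and not scaled between arrays, per the file headers. The authors also deposited log2 values for the same arrays, equal in distribution with an unstated baseline (median 5.81), which served as an alternative. Their genome build is not given in the sources used here.

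The 3671 control spots and 104 to 166 outlier spots per array were left out of 62976, and no spot was saturated. Spots of a probe were averaged on the log2 scale (55681 probes) and each array's 75th percentile was subtracted. Probes were named through RefSeq accessions and a gene table on GRCm38.p6, which gave a symbol to 47.2%. A gene was kept if a probe was flagged well above background on each array of 1 group or more, and the probe with the highest mean stood for it. Control and knockout were fitted with limma 3.58.1 in R 4.3.3 (lmFit, eBayes, 4 group means, 4 residual and 2.53 prior degrees of freedom, two-sided), with Benjamini-Hochberg adjustment of the p-values. The script was tested on simulated data. The number of arrays limits the precision.

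An "at least" fold sets the bright group's mean against, per array, the higher of the probe's own signal and the lowest signal well above background. The genes named are those called in any comparison, the gene with the smallest p in each family, 21 guidance genes listed by name, and genes below background in a whole group. Epha10, Ephb4, Plxna2, Sema5b, Sema6c, Unc5b, Unc50 and the ephrins Efna1, Efna3, Efna4 and Efnb3 stand outside this rule and were described after their values were seen. Members and lists were chosen with earlier results of these data known. All arrays sit on 1 slide and 1 scan. Alternatives were a replicate block, median and quantile scaling, normexp background correction (offset 50, on the median signal, since the mean signal column was absent), the authors' table, no filter and a stricter one, the mean over probes, only the groups compared, and leaving out each array.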

Additional observations from a re-analysis of the deposited data

How the results depend on the processing

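No change of a called guidance gene turned its sign under an alternative. Among the named guidance genes short of the threshold, the sign turned with no call in 21 pairs of gene and alternative for the mean of both days, 17 on day 9, 18 on day 7, 9 between the days in knockout and 19 in control cultures, and 48 for the interaction. Tested without the filter on dim probes, the guidance genes called numbered 0 on day 9, 2 for the mean of both days, 3 between the days in knockout cultures and 0 in control cultures, where 37256 genes entered the adjustment. Normexp background correction gave 9 for the mean of both days and 3 between the days in control cultures. With only the arrays compared in the fit, 1 was called on day 9 and 1 between the days in control cultures. A filter on all 8 arrays gave 1 on day 7, Plxna4. The cause was not tested beyond the number of genes and arrays entering. Leaving out 1 array gave 0 to 5 on day 9, 3 to 12 for the mean of both days, 3 to 9 between the days in knockout and 0 to 7 in control cultures, and 0 on day 7 and for the interaction throughout.

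Over all genes, the higher share of calls for the mean of both days was 37.3%, and 71.5% with arrays scaled to their median. On day 9 it was 27.8%, and 65.9% with that scaling, and on day 7 46.0%, and 58.2%. Calls over all genes numbered 1343 on day 9 and 329 under normexp, and 3623 and 1693 for the mean of both days.

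The replicate 1 minus 2 differences correlated at 0.25 to 0.46 among knockout day 7, control day 7 and control day 9, and at -0.25 to 0.04 between knockout day 9 and the others, so the numbers were not taken as pairs throughout. With the replicate block, calls were 0 on day 7, 5 on day 9, 20 for the mean of both days, 9 between the days in knockout and 10 in control cultures, and 0 for the interaction. With the numbers of the knockout day 9 arrays crossed, an alternative chosen after seeing the data, 10 were called on day 9. Dim probes limit Epha6, Epha10, Plxnb3 and Sema3e, which were below background on at least 1 array.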

Other observations

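Of the 9 neuropilins and plexins other than Plxna3 and Plxna4, Plxnd1 on day 9 lay above control on both knockout arrays, at 1.03 and 1.47, against 0.83 and 0.50, a change of 0.59 ± 0.22 by limma (adjusted p = 0.159). On that day Nrp1, Plxna2 and the dim Plxnb3 also lay above control, as did 27.2% of all genes. Sema5b lay above control on both knockout arrays of day 9, at 2.65 and 2.79, against 2.30 and 2.13, and below control on both arrays of day 7, at 2.36 and 2.18, against 2.66 and 2.72. Robo2 showed the same order, at -0.38 and -0.53 in knockout cultures, against -0.62 and -0.78 in control cultures, on day 9, and -0.02 and -0.14, against 0.42 and 0.03, on day 7. Neither had a called interaction. Plxnd1, Sema5b and Robo2 were picked after their values were seen.

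The other marker lists reported here were also read for the mean of both days. Of 5 floor plate genes, 2 were lower (Shh and Slit1), against 9.23% of all genes. Of 5 cell cycle genes, 2 were higher (Bub1 and Top2a), against 5.49%. By limma no gene was called among 3 astrocyte genes (2 higher at an unadjusted p under 0.05) and 5 oligodendrocyte lineage genes (0 unadjusted).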
